A study of Mus musculus with 7 samples.

Results

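The Tbx18 locus is described here through the sites at which the transcription factors Shox2 and Pbx were found around the gene in mouse embryos. Its members are the peaks whose midpoint lay on chromosome 9 between 87 and 88.2 Mb of the mouse build mm9, with Tbx18 near 87.60 to 87.63 Mb. The 3 peak lists placed 132 of their 82921 peaks there: 77 of 33915 for Shox2 in limb, 40 of 33915 for Pbx in limb and 15 of 15091 for Shox2 in palate. The region was chosen by measured peak counts, as one of the densest in sites shared by Shox2 and Pbx, so these counts and the overlap of both factors in limb are a description and support nothing.

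The study used chromatin immunoprecipitation and sequencing (ChIP-seq) on freshly dissected tissue, with 1 library for each group. Shox2 was precipitated through an HA tag in limb and in palate of Shox2-HA embryos at E12.5 (days of embryonic development), and Pbx with an anti-Pbx antibody in limb at E12.5. The limb lists hold the extent of each peak, the palate list holds positions of 1 bp, and none holds a height or score. Depth is therefore unknown, no value has a replicate error, and a peak absent from a list may still be a weakly bound site. The labels do not say how many embryos a library holds, and peak positions alone offer no marker by which to check the tissue.

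Tbx18 encodes a T-box transcription factor, one of a family that binds DNA through a shared domain. It is known for keeping the front and back compartments of somites apart, for the mesenchyme of the ureter, and for the sinus node region of the heart, where Shox2 acts too, and it is expressed in limb mesenchyme. Shox2 is a homeodomain protein required for the proximal limb skeleton. Pbx proteins are TALE homeodomain factors that commonly bind DNA beside other homeodomain proteins. In the RefSeq gene order of GRCm38, the nearest protein-coding genes were Cep162 and then Mrap2 on the low-coordinate side of Tbx18, and Nt5e and then Snx14 on the high-coordinate side. Tbx18 is transcribed toward low coordinates in that table, so its start lies at the upper end of its span and the sequence upstream of it runs toward Nt5e.

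The clearest feature beside the gene was a site in all 3 lists near its upper end. The Shox2 limb peak was chr9:87625943-87626147, with a width of 205 bp. It held the palate Shox2 position 87626054, which lay 9 bp from its centre. Both lay in a Pbx limb peak of 2506 bp, chr9:87624048-87626553, which stood at line 609 of the Pbx list, with only 3 of the 40 Pbx peaks at the locus higher in the file. The overlap rests on the width of the Pbx peak, whose centre lay 745 bp from that of the Shox2 limb peak, and is lost with limb peaks set to 200 bp. The Shox2 limb peak was centred 3.96 kb below the upper end of the gene's span. That span is given only to the nearest 10 kb and no mm9 gene model was used here, so whether the site covers the transcription start was not determined.

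Because of that site, the 250 bases upstream of the annotated Tbx18 start are shown, from the RefSeq promoter table of build GRCm38.p6, minus strand, chr9:87731261-87731510. These coordinates belong to another build than the peaks and cannot be set against them. Capitals mark the match to TGATTG, a Pbx-type half-site, which begins 89 bases before the start, together with the last base of an overlapping CCAAT box read on the opposite strand (ATTGG).

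Tbx18 upstream sequence: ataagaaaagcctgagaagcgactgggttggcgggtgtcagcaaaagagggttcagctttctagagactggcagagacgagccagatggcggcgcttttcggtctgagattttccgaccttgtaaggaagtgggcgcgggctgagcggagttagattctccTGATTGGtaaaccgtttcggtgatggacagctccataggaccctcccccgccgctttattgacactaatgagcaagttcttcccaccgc

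Of 32817 upstream sequences of the same length in the table, 12.7% held TGATTG and 33.8% held CCAAT on either strand. Searched in the same way, TGACAG (a Meis-type site), TGATNNAT (a Pbx and Hox composite) and TAATTA (a homeodomain site) had no match in these letters. They were found in 15.9%, 7.69% and 4.85% of the sequences, in that order. A match describes letters and not a bound site, and the absence of one speaks only of this window.

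Within the approximate span of Tbx18 lay 4 Shox2 limb peaks, 1 Pbx peak and 1 palate position. Besides the site in all 3 lists, the Shox2 limb peaks were chr9:87603155-87603324 (170 bp), chr9:87618524-87618859 (336 bp) and chr9:87622880-87623698 (819 bp). None of these met a Pbx peak, but the widest ended only 349 bp short of the Pbx peak of the shared site. Just above the span stood the widest Pbx peak of the locus, chr9:87630856-87635986, with 5131 bp. It covered the Shox2 limb peaks chr9:87631801-87632232 and chr9:87633501-87633976, and a further Shox2 limb peak of 744 bp began 417 bp beyond it. The rounded upper end of the gene thus had broad Pbx peaks on both sides, with Shox2 limb peaks inside both and beside the pair, and none in the stretch between them. No palate position lay above the span for 89.7 kb, up to 87719691.

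**Figure D1:**
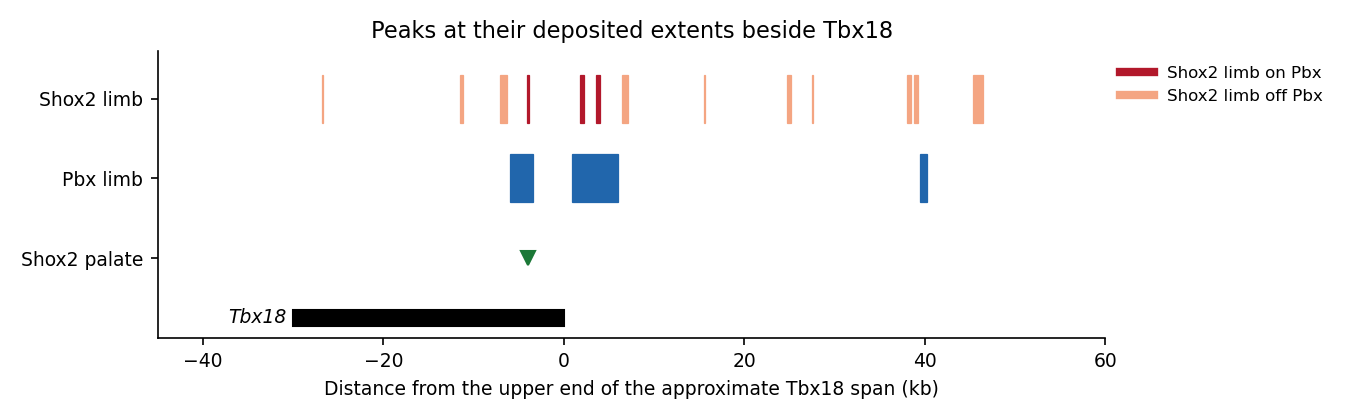
Peaks of the 3 lists at their deposited extents, against distance in kb from the upper end of the approximate Tbx18 span (black bar). Shox2 limb peaks are dark where they overlap Pbx and light where they do not, and the triangle is the 1 palate position, which falls in a Shox2 limb peak and a Pbx peak.

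Shox2 limb peaks formed a field around Tbx18, described here with its margins. On the low side the field began with a single peak at chr9:87047260-87047532, and the next peak outward lay at 86930156, outside the region. On the high side it ended at chr9:88193287-88193781, and the next Shox2 limb peak began at 88442250. The 200 kb beyond the upper edge held 0 Shox2 limb peaks and those below the lower edge held 3, where the region itself averaged 12.8 per 200 kb. Pbx had 1 and 3 peaks in the same margins, against 6.67 per 200 kb within. Palate Shox2 had 3 and 1, against 2.5 within. The region was chosen as dense in sites shared by Shox2 and Pbx, and its edges were set by hand around these peaks. Sparser limb margins follow from that choice, so nothing is read from them. Palate counts of 3 and 1 are too few to tell from 2.5.

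**Figure D2:**
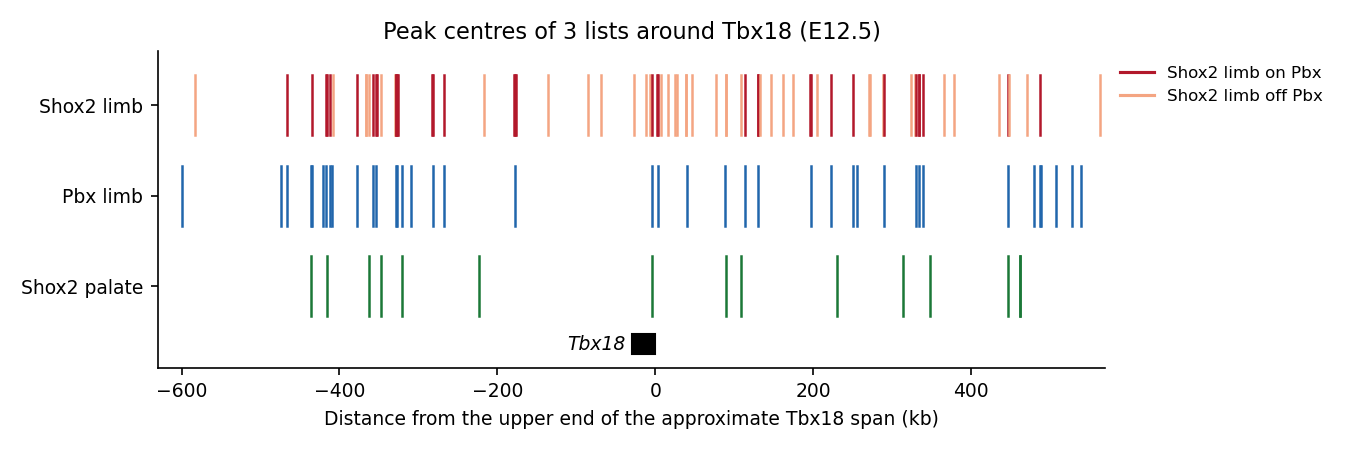
Centres of all 132 peaks against distance in kb from the upper end of the approximate Tbx18 span, 1 row per list and 1 tick per peak. Shox2 limb peaks are dark where they overlap a Pbx limb peak (36) and light where they do not (41).

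Neighbouring peaks lay close together, which the choice of a dense region fixes. The median distance between neighbouring Shox2 limb centres was 8412 bp at the locus and 27130 bp over the whole list. Chaining centres at most 5 kb apart gave 8 clusters of 3 or more Shox2 limb peaks. The largest, chr9:87262987-87277654, held 6 Shox2 limb peaks, 3 of them on Pbx, and 1 palate position. The cluster chr9:87300176-87303972 held 5 in 3.80 kb, 4 of them on Pbx, and chr9:87959197-87969069 held 5 in 9.87 kb, 4 on Pbx. The fullest 4 of 24 bins of 50 kb contained 39.0% of the Shox2 limb peaks. These were the bins from 87.25 and 87.30 Mb, the one that holds the upper end of Tbx18 (from 87.60 Mb) and the one from 87.95 Mb. Bins far from the gene on each side thus held about as many peaks as the one at the gene.

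**Figure D3:**
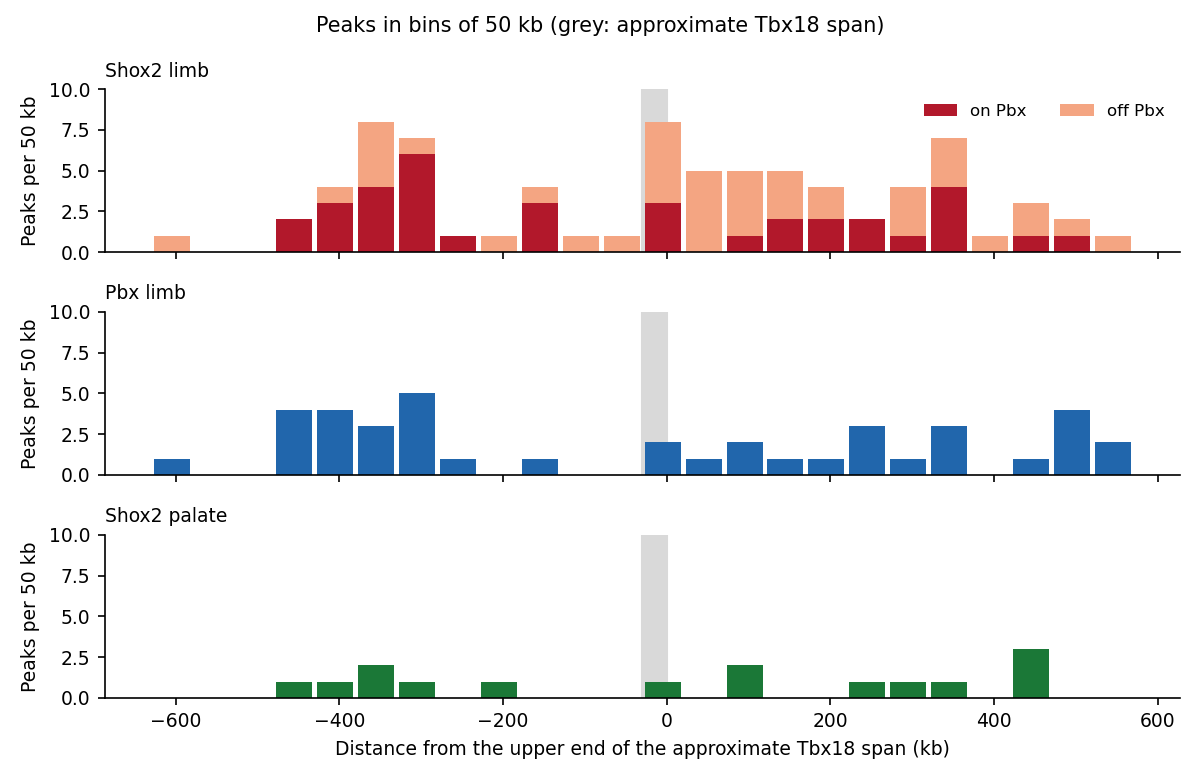
Number of peaks in each 50 kb bin for the 3 lists, against distance in kb from the upper end of the approximate Tbx18 span (grey band). Shox2 limb reaches 8 peaks in the bin at the gene and in the bin from 87.25 Mb. Pbx is missing from several bins just below the gene.

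The flanks of the gene differed in layout. Below it, from 87 to 87.60 Mb, lay 30 Shox2 limb peaks and 19 Pbx peaks, and above it, from 87.63 to 88.20 Mb, lay 43 and 20. Of the Shox2 limb peaks, 19 of 30 (63.3%) overlapped Pbx below the gene and 16 of 43 (37.2%) above it, beside 26.5% of the whole list. With every limb peak set to 200 bp around its centre these shares were 16.7% and 20.9%, beside 16.4% of the whole list. The direction thus depended on how far the peaks extend. The region was chosen on this overlap, and the difference between the flanks was not tested. Pbx peaks also left a stretch of 171 kb empty, between 87453488 and 87624048, which reaches from below the gene through most of its approximate span. The same stretch held 6 Shox2 limb peaks of 170 to 819 bp, 3 of them within the span, and 0 palate positions.

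Over the whole region, 36 of 77 Shox2 limb peaks (46.8%) overlapped a Pbx limb peak by at least 1 bp, where 26.5% of the whole Shox2 limb list did. From the other side, 25 of 40 Pbx peaks (62.5%) overlapped Shox2 limb, where 23.4% of the whole Pbx list did. The deposited list of co-occupied regions held the same 36 peaks and is no separate measurement. In the first 50% of the Shox2 limb list in file order, 24 of 45 members (53.3%) lay on Pbx, beside 34.6% of that part of the list. In the last 50%, 12 of 32 (37.5%) did, beside 18.5%. The region was chosen on this overlap, so nothing is read from these gaps.

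The gap for Shox2 limb was smaller at a fixed extent. With every limb peak set to 200 bp, 14 of 77 Shox2 limb peaks (18.2%) overlapped Pbx at the locus and 16.4% in the whole list. Of the Pbx peaks, 14 of 40 (35.0%) then overlapped Shox2 limb, beside 16.3%. The 41 Shox2 limb peaks off Pbx were a median of 8129 bp from the nearest Pbx peak (25611 bp in the whole list). Of them, 11 (26.8%) were within 1 kb of one, beside 1138 of 24916 (4.57%). The region was chosen as dense in shared sites and holds more Pbx peaks than most stretches, so nothing is read from these distances. The centres of overlapping peaks lay farther apart here, where Pbx peaks with Shox2 were also wider (median 1489 bp, beside 1068 bp in the list). The part of that width in the centre distances was not tested. The median distance from the Shox2 centre to the nearest overlapping Pbx centre was 296 bp (quartiles 108 and 508 bp), and 142 bp (63 and 289 bp) over the whole list. At 24 of 36 sites (66.7%) the Shox2 peak was centred within the middle 50% of the Pbx peak, beside 78.6% in the whole list. Of the 36 Shox2 limb peaks, 33 (91.7%) lay wholly inside the Pbx peak, near the 87.5% of the whole list. Pbx peaks here were wide, with a median of 1125 bp beside 897 bp in the list, and 10 of the 25 with Shox2 covered more than 1 Shox2 limb peak. One of them, chr9:87451530-87453488, covered 3. The share of such Pbx peaks in the whole list was not computed. The region was chosen as dense in shared sites, so nothing is read from this count.

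**Figure D4:**
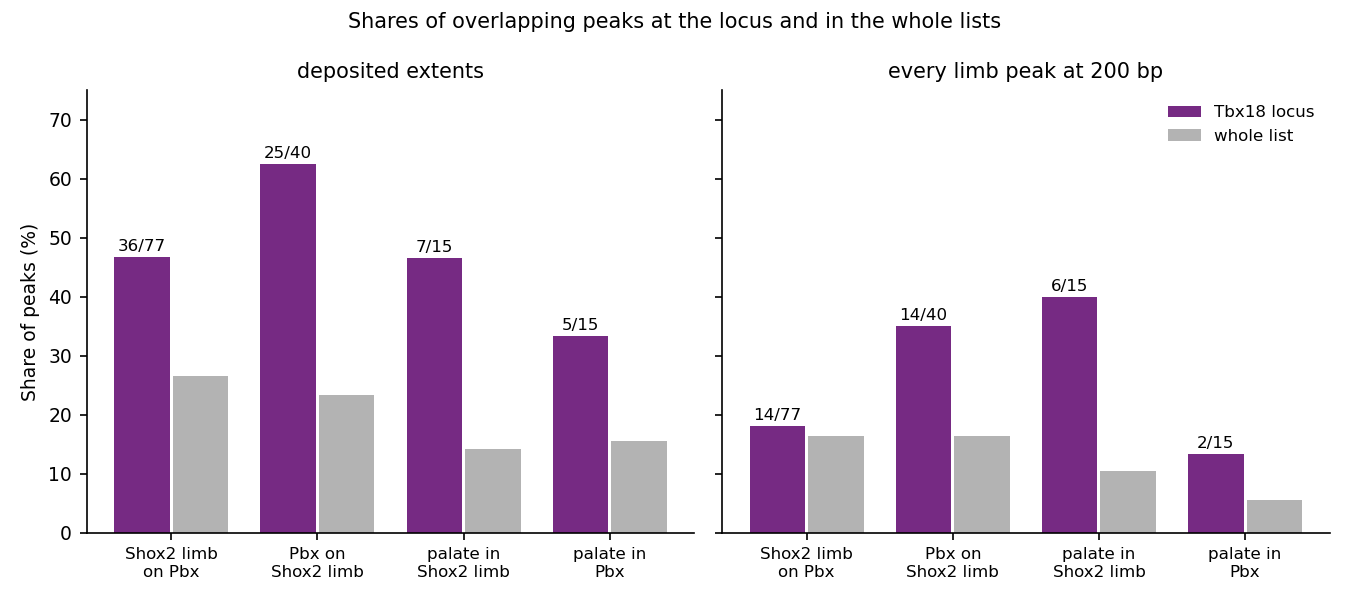
Percent of peaks that overlap another list, at the locus (dark, with counts) and in the whole list (grey), at the deposited extents and with every limb peak set to 200 bp. For Shox2 limb on Pbx the locus share falls from 46.8% to 18.2%, beside 26.5% and 16.4% in the list.

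Shox2 limb peaks at the locus had a median width of 327 bp (261 bp in the list), from 170 to 1402 bp. Their median place was 34.9% of the way down the file, which may or may not be a ranking, and 11 of 77 stood in the first 10%. The 36 on Pbx had a median width of 442 bp and a median place of 18.02%, and the 41 off Pbx 258 bp and 49.0%. The same order held in the whole list, at 326 and 245 bp and at 33.6% and 55.0%. Wide and early peaks were thus more often on Pbx at the locus and in the list alike. Overlap was scored at the deposited extents, and how far width itself makes an overlap more likely was not tested.

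The first 5 Shox2 limb peaks of the locus in file order did not all follow that order. The highest, chr9:87675374-87676456 at line 55, was 1083 bp wide and met neither list. It lay 45.9 kb above the upper end of the gene span, 5103 bp from the nearest Pbx peak and 43234 bp from the nearest palate position. The other four were on Pbx. The next, chr9:87271568-87272969 at line 115, was the widest Shox2 limb peak of the locus (1402 bp) and was centred 75 bp from the centre of a Pbx peak of 2116 bp at line 336. The neighbours chr9:87347350-87347915 (line 304) and chr9:87348013-87348951 (line 243) shared 1 Pbx peak of 2043 bp at line 426. The last, chr9:87826702-87827532 (line 465), lay 197 kb above the gene and was centred 161 bp from its Pbx peak. The third widest Shox2 limb peak, chr9:87212366-87213405 with 1040 bp, was on Pbx as well, at line 5330.

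Pbx peaks with Shox2 were wider and mostly earlier in the file than those without. The 25 had a median width of 1489 bp and a median place of 14.7%, 10 stood in the first 10% of the list and 22 in the first 50%. The 15 without Shox2 had a median width of 790 bp and a median place of 73.0%, and 0 stood in the first 10%. In the whole list these medians were 1068 bp and 33.02% with Shox2, and 853 bp and 54.9% without. Here too, how far width itself makes an overlap more likely was not tested. The highest Pbx peak of the locus was chr9:87962983-87965566, with 2584 bp at line 205, in the cluster about 330 kb above the gene. It covered 2 Shox2 limb peaks. The peak chr9:87959565-87961053 (line 874) stood just below it and also held Shox2. Another of the widest, chr9:87275245-87277809 with 2565 bp, lay in the largest Shox2 limb cluster and covered 2 of its peaks.

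**Figure D5:**
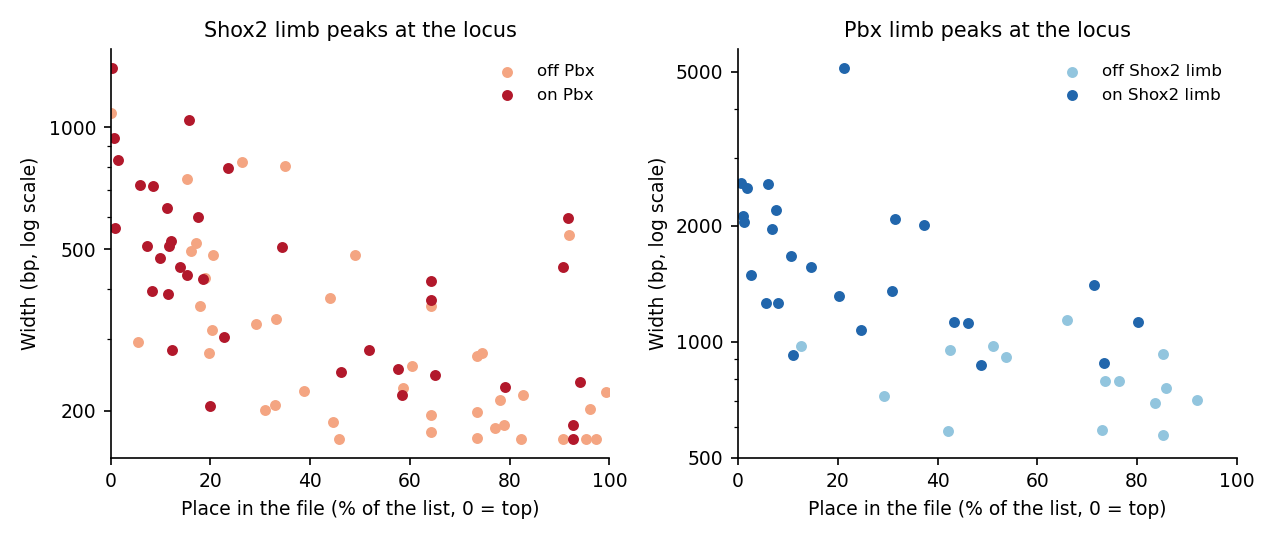
Width of each peak in bp (log axis) against its place in the file in percent of the list, for the 77 Shox2 limb and 40 Pbx limb peaks at the locus. Dark points overlap the other factor in limb; the widest and earliest Pbx peaks are dark, and the earliest Shox2 limb peak is light.

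The palate gave 15 Shox2 positions, of which 7 (46.7%) lay in a Shox2 limb peak, beside 14.2% of the whole palate list. Those 7 fell in 7 of the 77 Shox2 limb peaks (9.09%, beside 6.28% of the list). In a Pbx limb peak lay 5 (33.3%, beside 15.6%), and in both 3 (20.0%, beside 5.18%). None of the 15 stood in the first 10% of the palate list, and the highest was at line 3821. With limb peaks at 200 bp, 6 of 15 (40.0%) lay in a Shox2 limb peak, beside 10.4% of the list, 2 (13.3%) in a Pbx peak, beside 5.58%, and 0 in both, beside 1.52%. The locus also holds more limb peaks per Mb than most, and the part of that density in these shares was not tested.

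The sites in all 3 lists were the one at the gene and 2 distant ones, and none of the 3 remained with limb peaks at 200 bp. At chr9:87213518-87213968 a Shox2 limb peak of 451 bp held the palate position 87213696 within a Pbx peak of 2082 bp. That Pbx peak also covered the Shox2 limb peak of 1040 bp named above. At chr9:88075778-88076572 a Shox2 limb peak of 795 bp held the palate position 88076485, and its centre was 7 bp from the centre of a Pbx peak of 1125 bp. The limb peak at the former site stood at line 30733 and the Pbx peak at the latter at line 27213, both far down their lists. Only the site at the gene stood in the first 50% of all 3 lists.

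The other 4 palate positions in a Shox2 limb peak were off Pbx. They were 87267272 and 87282505 below the gene, and 87719691 and 87738979 at 89.7 and 109 kb above the upper end of its span. Each lay at most 68 bp from the centre of its limb peak. A further 2 positions, 87193938 and 87308955, lay in Pbx peaks without Shox2 in limb, 79 and 82 bp from their centres. The last 6 met neither list: 87406662 on the low side, and 87859964, 87944239, 87977869, 88091591 and 88092103 on the high side. The 8 palate positions outside Shox2 limb peaks were 1284 to 9173 bp from the nearest one, with a median of 7805 bp, beside a median of 25856 bp for such positions in the whole list. None of these 8 lay within 1 kb of a limb peak, beside 1104 of 12938 in the whole list, and 8 positions are too few to tell these apart. The part of the locus's limb peak density in these distances was not tested.

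Beside all 2115 stretches of 1.2 Mb that held any peak, laid end to end from the edges of the region, the locus had the most co-occupied peaks (36, median 3) and was number 4 in Shox2 limb peaks (77, median 13). It was number 129 in Pbx peaks (40, median 13) and number 220 in palate positions (15, median 6). Its edges were set by hand around these peaks, which the other stretches were not, and tied stretches share the same number. Among windows of 1 Mb, the Tbx18 window (87 to 88 Mb) held 70 Shox2 limb and 33 Pbx peaks. The window from 66 to 67 Mb on chromosome 3, around Shox2 itself, held 93 and 33, the one from 23 to 24 Mb on chromosome 14 held 73 and 46, and the densest on chromosome 1 held 79 and 28. Shox2 limb peaks on Pbx numbered 34 in the Tbx18 window and 35, 35 and 33 in the others in that order, so it was not first here. They made up 48.6% of the Shox2 limb peaks, beside 37.6%, 47.9% and 41.8%. Pbx peaks on Shox2 limb made up 69.7%, beside 78.8%, 60.9% and 89.3%. Palate positions numbered 12, beside 19, 14 and 22, of which 6, 9, 3 and 8 lay in a Shox2 limb peak. These differences between windows were not tested.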

How the data were processed

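ChIP-seq peak lists of 3 of the 7 libraries (Shox2 limb, Shox2 palate and Pbx limb, all E12.5) and the series' list of co-occupied regions were used; the others were not analysed here. Bowtie, MACS2 and the build mm9 are named per the submitters' processing notes; versions, cutoffs and use of a control: not given in the sources used here. Deposited files hold starts and ends in bp, with no score, so depth is unknown and no counting interval could be given; palate entries are 1 bp wide. Starts were converted to count from 1.

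Peaks were members when their midpoint lay in the window. Overlap was at least 1 bp. Shares are given beside those of the whole list, and no test was run, since each group has 1 library and the members and lists were chosen with earlier results of these data known. Alternatives were peaks of 200 bp, a distance of 250 bp, the first 50% of each list, and the wider 50% of limb lists. The window was also extended or shortened by 200 kb on each side. Peaks named were the first 5 in file order and 3 widest of each limb list, all palate positions, all sites in 3 lists and those at the gene. Clusters, peaks in the margins and the peaks just above the gene were described besides. Gene order and sequence came from RefSeq tables of GRCm38, and no coordinate was converted. The overlap code was tested on simulated data. Python 3.11.15, NumPy 2.4.6, SciPy 1.17.1 and matplotlib 3.10.9 were used.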

Additional observations from a re-analysis of the deposited data

How the results depend on the processing

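Of 36 recomputed values, 28 stayed within set limits (counts within 1.5 times, shares within the exact 95% binomial interval of the reported share) and 8 moved. That interval treats neighbouring peaks of 1 library as independent and is wide for 15 palate positions. The palate share in a Pbx peak thus stayed within it at 13.3% (limb peaks at 200 bp), beside 33.3% as reported. In the first 50% of each list the locus held 45 Shox2 limb peaks, 26 Pbx peaks, 8 palate positions and 1 site in all 3 lists, and in the wider 50% of the limb lists 47 Shox2 limb peaks; shorter lists lower these counts by construction. With every limb peak at 200 bp the share of Shox2 limb peaks on Pbx was 18.2%, that of Pbx peaks on Shox2 limb was 35.0% (16.3% in the whole list), and 0 sites were in all 3 lists. Extending or shortening the region by 200 kb on each side moved none of the 8 values past these limits. With 1 library a group, leaving out a replicate could not be done. Without depth, absence of a peak and a weak peak under a list's cutoff cannot be told apart.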

Other observations

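Some peaks of the locus stood on consecutive lines of their file in the order of their positions. Shox2 limb lines 21752 to 21756 were peaks starting at 87277280, 87654747, 87743058, 87775959 and 88065555, all at this locus, and lines 24929 to 24931 were 3 more. In the whole Shox2 limb list, 51.9% of neighbouring lines in the first 50% of the file and 75.04% in the last 50% were on the same chromosome, and of those 99.4% and 99.8% ascended in position. In the Pbx list 7.82% and 24.7% of neighbouring lines were on the same chromosome, and in the palate list 32.5% and 50.5%. Within such runs a line number orders peaks by position, so small differences in list place carry no meaning, least of all in the Shox2 limb list.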
